A study of Homo sapiens with 4 samples.

Results

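The mitochondrial ribosomal protein genes were taken as the 78 symbols that begin with MRPL or MRPS and a number in the feature lists of both cell lines, out of 33540 features for Ishikawa and 33538 for T-47D. Antisense, joined and pseudogene names were left out. Levels are given as CPM, the counts of a gene scaled to the same total in every pool. A minimum of 10 CPM, as the mean of the 4 time points, was passed by 75 of the 78 genes in Ishikawa and by 74 in T-47D, and by 7885 and 7440 genes in all. The members below it are given by their values and stay out of the counts and medians.

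The mitochondrial ribosome, or mitoribosome, translates the few messenger RNAs that mitochondrial DNA encodes, all of them for subunits of the respiratory chain and ATP synthase. Its ribosomal RNAs come from mitochondrial DNA, while its proteins are encoded in the nucleus, made in the cytosol and imported. MRPL genes encode proteins of the large subunit and MRPS genes those of the small subunit, with the exceptions MRPS30 and MRPS18A, whose products sit in the large subunit, and MRPS36, whose product is now known as KGD4, a part of the oxoglutarate dehydrogenase complex.

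Ishikawa is a line from a human endometrial adenocarcinoma, and its feature list here also held the reporters GFP and tdTomato. GFP was counted in these cells, as given below, and counts of tdTomato are not given. T-47D is a line from a human breast carcinoma. Both were kept without hormones and then given 10 nM 17β-estradiol (E2), the main estrogen, for 2, 4 or 8 h, or the DMSO vehicle, which is the 0 h group. Each combination of line and time was 1 culture, the 4 cultures of a line were marked with MULTI-seq tags and mixed into 1 droplet library, and line and library cannot be told apart. After the cell filter, the 8 pools held 553 to 1525 cells and 12927799 to 33175309 unique molecular identifiers (UMIs), each of which stands for 1 captured transcript. The lines shared 5 barcodes among the 4613 and 4626 kept cells. All 10 breast luminal markers passed 10 CPM in T-47D and 5 of 10 did in Ishikawa, with GATA3, the luminal transcription factor, at 518 CPM in T-47D and at 0 UMIs in Ishikawa (up to 0.20 CPM at 3 counts), while 9 of 10 endometrial epithelial markers passed in Ishikawa and 4 of 10 in T-47D. Markers of fibroblasts, immune cells and endothelium summed to 31.95 and 17.4 CPM at 0 h, with 1 of 10 past the minimum in each line. With no replicate cultures, differences are given without a test, and the 95% intervals in brackets are exact Poisson intervals of a level or exact binomial intervals of a ratio and cover counting error only.

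NRF1, ETS family factors and YY1 are known regulators of many nuclear genes with mitochondrial products, so the promoters of the members were searched for their motifs and for those of the estrogen receptor. RefSeq (build GRCh38.p14) gave a window of 250 bases before to 50 bases after the start for 70 of the 78 genes, and MRPL2, MRPL10, MRPL13, MRPL15, MRPL21, MRPL23, MRPL35 and MRPS28 were not matched. Motifs were searched as exact letters on both strands. The core of the YY1 motif, AAGATGGC, was in 20 of 70 member promoters (28.6%), against 6.58% of the 7002 promoters of protein-coding genes past the minimum in either line and 3.91% of all 15843. Of the 21 matches in members, 15 lay after the start (71.4%), a position shared by 68.8% of the matches in expressed genes. An ETS core, CCGGAAGT, was in 11 member promoters (15.7%, against 10.6% of expressed genes) and an NRF1 core, GCATGCGC, in 6 (8.57% against 6.34%). The E-box CACGTG was in 7 (10.0% against 10.9%), and the estrogen response arm AGGTCA, of which a full element holds a pair, in 11 (15.7% against 9.20% of expressed and 11.7% of all genes). A full estrogen response element, an exact pair of such arms facing each other, was found in 0 promoters of any set. The members with 1 arm were MRPL11, MRPL43, MRPL53, MRPL55, MRPS17, MRPS18A, MRPS18C, MRPS21, MRPS30 and MRPS33, and MRPL34 held 2. These are matches of letters and not measured sites. In addition, 18 of the 70 members (25.7%) had the start of another gene on the opposite strand within 1000 bases upstream, as did 15.1% of expressed genes. One such pair, MRPL46 and MRPS11, consists of members of both subunits whose starts lie 320 bases apart. Shown here are the promoters of MRPL12, the member with the highest change at 8 h in both lines, of MRPS12 and MRPL46, which were above 0 h at every time in both lines, and of MRPL51, the most abundant member in Ishikawa, with YY1 and ETS core matches in capitals and each read 5′ to 3′ on the strand of its gene (in the order below chr17:81703117-81703416, plus strand; chr19:38930694-38930993, plus strand; chr15:88467339-88467638, minus strand; chr12:6493213-6493512, minus strand).
MRPL12: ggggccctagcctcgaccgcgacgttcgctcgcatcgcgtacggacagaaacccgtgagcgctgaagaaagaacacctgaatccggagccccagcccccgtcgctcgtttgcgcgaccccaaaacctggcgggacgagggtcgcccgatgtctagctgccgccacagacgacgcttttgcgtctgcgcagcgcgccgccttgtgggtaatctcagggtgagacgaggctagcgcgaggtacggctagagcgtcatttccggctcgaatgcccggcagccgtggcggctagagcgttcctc
MRPS12: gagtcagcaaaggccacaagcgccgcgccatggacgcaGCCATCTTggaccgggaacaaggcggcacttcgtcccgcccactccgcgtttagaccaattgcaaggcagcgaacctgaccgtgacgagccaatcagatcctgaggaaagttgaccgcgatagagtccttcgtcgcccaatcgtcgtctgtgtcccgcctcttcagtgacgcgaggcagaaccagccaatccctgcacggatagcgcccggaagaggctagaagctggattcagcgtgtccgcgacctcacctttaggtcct
MRPL46: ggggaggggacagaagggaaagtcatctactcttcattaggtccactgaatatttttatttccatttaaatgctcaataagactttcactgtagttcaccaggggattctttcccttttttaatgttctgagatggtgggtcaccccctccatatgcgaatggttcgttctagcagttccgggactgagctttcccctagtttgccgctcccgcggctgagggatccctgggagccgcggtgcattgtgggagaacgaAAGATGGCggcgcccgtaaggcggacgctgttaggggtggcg
MRPL51: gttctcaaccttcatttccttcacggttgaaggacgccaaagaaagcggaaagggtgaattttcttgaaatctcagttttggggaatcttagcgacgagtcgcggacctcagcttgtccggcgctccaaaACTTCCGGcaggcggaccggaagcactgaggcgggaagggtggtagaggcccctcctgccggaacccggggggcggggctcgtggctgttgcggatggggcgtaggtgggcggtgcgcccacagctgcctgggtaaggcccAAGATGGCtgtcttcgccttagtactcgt
None of the motifs searched was in the MRPL12 window. MRPS12 shares its upstream region with SARS2, the mitochondrial seryl-tRNA synthetase gene, whose start lies 181 bases away.

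Before E2, the members were of middle to high abundance. The median member stood at 85.5 CPM in Ishikawa and 94.2 CPM in T-47D, against 32.8 and 33.2 CPM for all genes past the minimum. UMIs count molecules captured at the 3′ end, so these levels are not scaled by length. In Ishikawa the highest level was that of MRPL51, a large subunit protein without a bacterial counterpart, at 651 CPM (638 to 664). MRPL20, a homologue of a bacterial large subunit protein, followed at 460 CPM (450 to 471) and MRPL57 at 317 CPM (308 to 326), and none of these intervals overlapped. In T-47D the order was different. MRPL41 was highest at 441 CPM (434 to 448), followed by MRPS34 at 302 CPM (296 to 308) and MRPL47 at 270 CPM (265 to 276), whose interval overlapped that of MRPS21, the next member, at 260.3 CPM (255 to 266). At the low end, MRPL10, which anchors the stalk of the large subunit, had 11.5 CPM (9.86 to 13.3) in Ishikawa and 20.2 CPM (18.7 to 21.8) in T-47D, and MRPL39 had 16.5 CPM (14.5 to 18.6) and 17.8 CPM (16.4 to 19.3). MRPS28 in Ishikawa (17.3 CPM, 15.3 to 19.5) and MRPS27 in T-47D (22.3 CPM, 20.7 to 23.9) came next. In this part of the order neighbouring intervals overlapped, except those of MRPL10 and MRPL39 in Ishikawa. The 3 members under the minimum in both lines were MRPL53 (9.21 and 7.96 CPM), MRPL38 (5.68 and 5.18 CPM) and MRPS24 (3.53 and 2.14 CPM). The joined feature URGCP-MRPS24, which could share reads with MRPS24, had 0 UMIs in both lines at 0 h. This allows up to 0.20 CPM in Ishikawa and 0.090 CPM in T-47D at 3 counts. How reads that fit both features were counted was not examined, so this 0 does not show that MRPS24 lost no reads. No feature named as a pseudogene of a member was found in the feature lists. This does not show that the member counts hold no reads from such copies. For 28 members the RefSeq span overlaps that of another protein-coding or long noncoding gene, with both strands and introns counted. How reads in a shared part were counted was not examined.

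**Figure D1:**
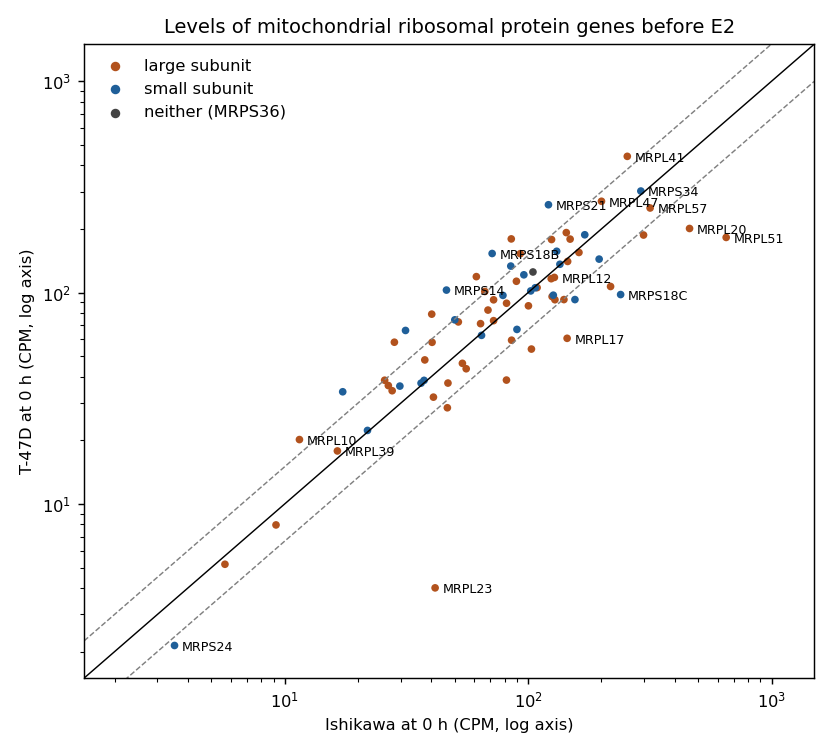
Level of each of the 78 members at 0 h in Ishikawa (horizontal) and T-47D (vertical), in CPM on log axes, with large subunit members, small subunit members and MRPS36 in separate colours a solid line of equal levels and dashed lines at 1.5-fold. MRPL23 and MRPL51 lie farthest under the line, at 41.5 against 4.01 and 651 against 182 CPM.

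The levels of the members were ordered alike in the lines, with a Spearman rho of 0.81 across the 74 members past the minimum in both, and 0.74 across 6404 genes. This is a description over genes, which share the libraries and are not replicates. At 0 h, 14 of 75 members were at least 1.5-fold higher in T-47D, where 24.4% of 8960 genes were, and 12 were at least 1.5-fold higher in Ishikawa, where 35.6% of genes were. The median log2 difference (T-47D minus Ishikawa) was 0.06 for members and −0.20 for all genes. This count depended on the scaling. With TMM factors the median of all genes moved to 0.30 and the counts to 34 members higher in T-47D (45.3%, against 39.8% of genes) and 7 higher in Ishikawa (9.33% against 20.8%). Relative to the median of all genes the members stood 0.25 above it with total UMIs and 0.19 with TMM factors. This distance was 0.47 with every cell called to a time point, 0.16 at a minimum of 50 CPM and 0.13 with no minimum.

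MRPL23, a protein at the exit of the peptide tunnel, differed most, with 41.5 CPM (38.3 to 44.8) from 635 UMIs in Ishikawa and 4.01 CPM (3.36 to 4.75) from 133 UMIs in T-47D. On the log2(CPM + 1) scale this was a difference of −3.08. It stayed low in T-47D at 3.85, 3.78 and 2.24 CPM after 2, 4 and 8 h, and at 41.8, 44.1 and 46.1 CPM in Ishikawa. The RefSeq span of MRPL23 overlaps H19, LINC01219 and MRPL23-AS1. MRPL51 was at 651 against 182 CPM (−1.83), and MRPS18C, a small subunit protein, at 240 against 97.9 CPM (−1.28). Higher in T-47D were MRPS14 with 46.2 CPM in Ishikawa and 103 CPM in T-47D (1.14), MRPS21 with 121 and 260 CPM (1.10) and MRPS18B with 71.2 and 153 CPM (1.09), all of them small subunit genes. MRPS18B and MRPS18C are paralogues, and they thus stood in opposite order in the lines. The third paralogue, MRPS18A, had 53.7 and 46.3 CPM.

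The difference of each member between the lines was also set beside the median difference of its measured neighbours, a comparison added after the values had been seen. These were up to 20 genes of its chromosome, the nearest on each side with other members left out. Near a chromosome end there were fewer, such as 15 for MRPL41. Across 75 members rho was 0.54, and across 8808 genes it was 0.35. Neighbouring points share measured genes, so they are not independent. MRPL51 (−1.83) lay among genes with a median of −1.55 and MRPL16 (0.96) among genes with a median of 0.98. MRPL23 (−3.08) and MRPS18B (1.09) stood apart from their surroundings, which had medians of −0.36 and −0.36, and MRPS35, on the same chromosome as MRPL51, was at 0.65 among genes with a median of −1.39. Copy number was not measured in these files and its part in the result was not tested.

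**Figure D2:**
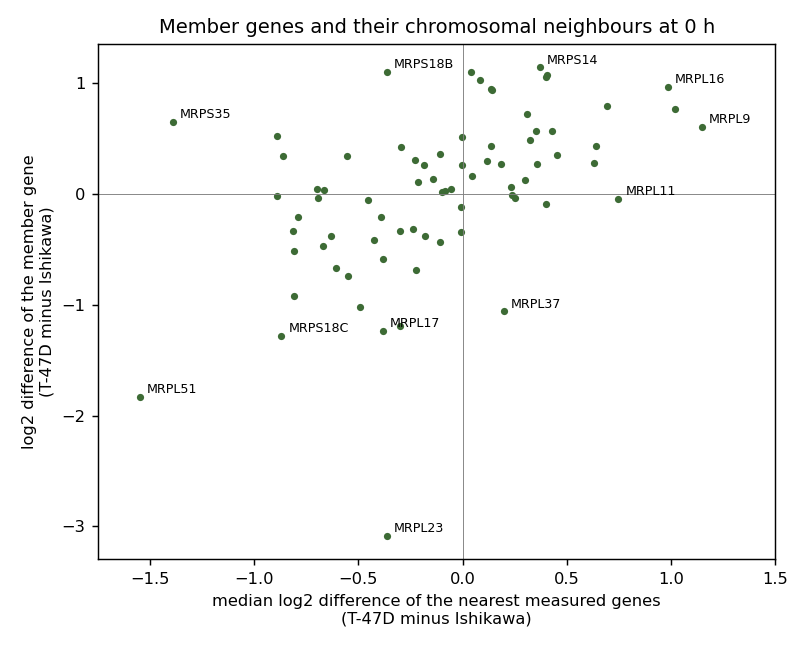
Log2 difference between the lines at 0 h (T-47D minus Ishikawa) of each of the 75 members past the minimum in either line. It is set against the median of the same difference over up to 20 measured genes, the nearest on each side, with grey lines at 0. Members spread around a rising band (rho 0.54), with MRPL23 at −3.08 far below its neighbourhood.

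After E2 single members differed little from 0 h, and in Ishikawa most of the small changes had the same sign. Summed over the 78 genes, their level in Ishikawa was 8394 CPM (8348 to 8440) at 0 h, 8742 at 2 h, 8780 at 4 h and 8919 (8886 to 8953) at 8 h. In T-47D the sum was 8003 (7973 to 8034), 8095, 8157 and 8287 CPM (8238 to 8337) at the same times. All 3 E2 pools were above the 0 h pool of their line, and in both lines the 8 h pool was highest. The Ishikawa 0 h pool, with which every Ishikawa change is compared, stood apart in the cell filter. It kept 776 of 2032 called cells (38.2%), where 52.4% to 55.8% were kept in the E2 pools, and its median kept cell had 19121.5 UMIs, against 19616.5 to 21435.5. In T-47D all called cells were kept. The part of this in the Ishikawa changes was not tested beyond the values with every called cell given below.

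At 1.5-fold, 0 of 75 members were past the limit at 2, 4 or 8 h in Ishikawa, where 1.45%, 1.26% and 1.28% of all genes were. In T-47D 0 of 74 were past it, against 1.64%, 1.69% and 3.06% of genes. With shares this small, a count of 0 at 1.5-fold does not set the members apart from all genes. At a smaller limit of 0.32 on the log2 scale the only member was MRPL12 at 8 h in Ishikawa, with backgrounds of 6.49%, 7.19% and 8.1% in Ishikawa, compared with 5.09%, 7.24% and 11.5% in T-47D. The sign of the changes was less evenly divided. In Ishikawa 59, 56 and 61 of 75 members had a log2 change above 0 at 2, 4 and 8 h, whereas 45.5%, 46.2% and 50.3% of all genes did. The median changes of members were 0.06, 0.07 and 0.09, and those of all genes −0.01, −0.01 and 0.00. In T-47D 47, 42 and 46 of 74 members were above 0, against 52%, 47.2% and 51.9% of genes, with medians of 0.02, 0.02 and 0.04 against 0.01, −0.01 and 0.01. Members had a higher median level than all genes, and the shares of genes past the fold limits above were not matched for level. With a minimum of 50 CPM, 47, 45 and 46 of 56 members were above 0 in Ishikawa, against 51.3%, 54.5% and 55.0% of genes. In T-47D 36, 34 and 38 of 57 members were, against 51.8%, 47.5% and 51.5% of genes. Another scaling also moved the splits. With TMM factors 65, 65 and 67 of 75 members and 57.9%, 59.3% and 61.1% of genes were above 0 in Ishikawa, while 43, 47 and 41 of 74 members and 48.4%, 49.5% and 47.3% of genes were in T-47D. With median-of-ratios factors 64, 65 and 66 of 75 members were above 0 in Ishikawa, compared with 48, 51 and 44 of 74 in T-47D, where 52.6%, 52.6% and 50.3% of genes were. Over the alternatives that kept all 75 or 74 members, the lowest count in Ishikawa was 46, at 2 h in cells under 1% GFP, and the highest was 72, at 8 h with every called cell. In T-47D the lowest was 34, at 2 h with a lower maximum of UMIs per cell. The highest there was 51, at 4 h with median-of-ratios factors. The T-47D 2 h median went to −0.0030 with a lower maximum of UMIs and to −0.0025 when each cell was weighted equally. The 3 comparisons of a line share its 0 h pool, so a high or low 0 h value enters all of them.

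**Figure D3:**
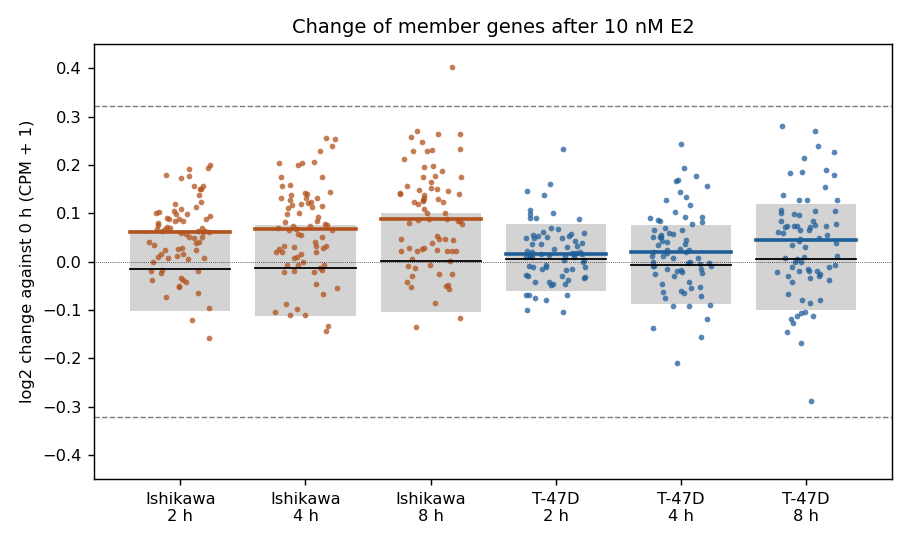
Log2 change of each member against 0 h of its line (points) at 2, 4 and 8 h, with the median of the members as a coloured line, the quartiles of all genes past the minimum as a grey box and their median as a black line. Dashed lines mark a log2 change of 0.32 in either direction. Member medians in Ishikawa are 0.06, 0.07 and 0.09, and only MRPL12 at 8 h crosses the upper dashed line.

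In Ishikawa the share of UMIs from GFP also differed between the pools, with a median of 0.697% of a cell's UMIs at 0 h and 0.514% to 0.583% after E2. Among cells under 1% GFP the member medians were 0.034, 0.049 and 0.078 at 2, 4 and 8 h, each above the all-gene median of the same cells. With every cell called to a time point, also those outside the filter, they were 0.13, 0.14 and 0.15. TOP2A, a gene of dividing cells, was at 159, 155, 124.8 and 115 CPM at 0, 2, 4 and 8 h in Ishikawa, compared with 123, 117, 123 and 133 CPM in T-47D. MKI67, another such gene, was at 180.1, 179, 161 and 154 CPM, and in T-47D at 42.1, 45.2, 46.9 and 52.4 CPM. In Ishikawa the summed member level at 0 h was 8618 CPM (8563 to 8674) in cells with a UMI of either gene and 7857 CPM (7775 to 7939) in those without, and at 8 h it was 9095 and 8496 CPM, so both kinds of cell were higher at 8 h. In T-47D the same sums were 7900 and 8057 CPM at 0 h and 8405 and 8193 CPM at 8 h, so that the order of the kinds of cell differed between these times while both were higher at 8 h. Cells with such a UMI also held more UMIs in all (a median of 20844 against 16551 in Ishikawa at 0 h), and the part of depth in these sums was not tested.

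MRPL12 had the highest change of all members in both lines at 8 h. Its product forms the flexible stalk of the large subunit, where translation factors dock. Its level in Ishikawa was 128 CPM (123 to 134) at 0 h, 147 (142 to 151) at 2 h, 153 (148 to 159) at 4 h and 170 (165 to 174) at 8 h. In T-47D it was 118 CPM (114 to 122), 120 (116 to 124), 126 (122 to 130) and 143 (137 to 150). The log2 changes were thus 0.19, 0.26 and 0.40 (0.33 to 0.48) in Ishikawa and 0.02, 0.09 and 0.28 (0.20 to 0.36) in T-47D. The other stalk genes did not share this course. MRPL11, at the base of the stalk, had 145, 154, 152 and 154 CPM in Ishikawa, compared with 140, 139, 134 and 133 CPM in T-47D. MRPL10 had 11.5, 10.2, 11.1 and 11.7 CPM in Ishikawa, compared with 20.2, 19.9, 20.4 and 19.9 CPM in T-47D, all within overlapping intervals.

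A change above 0 at all 3 times in both lines was found in 24 of 74 members, against 12.8% of 6404 genes. Behind MRPL12, the next by the smaller of the 8 h values was MRPS23, a small subunit protein of mitochondria, with 103, 116, 116 and 119 CPM in Ishikawa, compared with 102, 113, 121 and 118 CPM in T-47D. Its log2 changes at 8 h were 0.21 (0.13 to 0.30) in both lines. MRPS12, a protein of the decoding centre, had 127, 141, 146 and 149 CPM in Ishikawa, compared with 97.2, 103, 111 and 111 CPM in T-47D. That every E2 pool of these genes lay above the 0 h pool of its line follows from how they were picked. MRPL4, which lines the peptide tunnel, had 103, 111, 119 and 124 CPM in Ishikawa, compared with 54.05, 56.7, 58.7 and 61.3 CPM in T-47D. MRPL3, a large subunit protein with a bacterial homologue, had 125, 128, 138 and 142 CPM in Ishikawa, compared with 95.8, 99.1, 105 and 116 CPM in T-47D, with an 8 h change of 0.27 (0.18 to 0.36) in T-47D. MRPL14 was at 0.24 (0.17 to 0.31) there at 8 h and 0.10 (0.03 to 0.17) in Ishikawa. MRPS2 had the second highest 8 h change in Ishikawa at 0.27 (0.12 to 0.44), with 29.7, 33.2, 35.6 and 36.04 CPM, and 0.07 (−0.08 to 0.23) in T-47D.

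Some of the members that were highest at 2 or 4 h had lower values at 8 h. These members were named for their high values at the earlier time, so lower values at 8 h can follow from how they were picked. Whether any of them rose and then fell after E2 was not tested. At 2 h in Ishikawa MRPL34 stood at 0.20 and MRPS33 at 0.19, and at 8 h they were at 0.13 and −0.05. MRPS17 and MRPL46 were at 0.23 and 0.16 at 2 h in T-47D and at 0.13 and 0.07 at 8 h. MRPS26 was at 0.24 at 4 h in Ishikawa and 0.20 at 8 h, and MRPL49 at 0.18 at 4 h in T-47D and 0.08 at 8 h. The counting intervals of each of these genes at the earlier and the later time overlapped, except for MRPS33 in Ishikawa (110 CPM, 106 to 114, at 2 h and 92.5 CPM, 89.2 to 96.0, at 8 h).

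**Figure D4:**
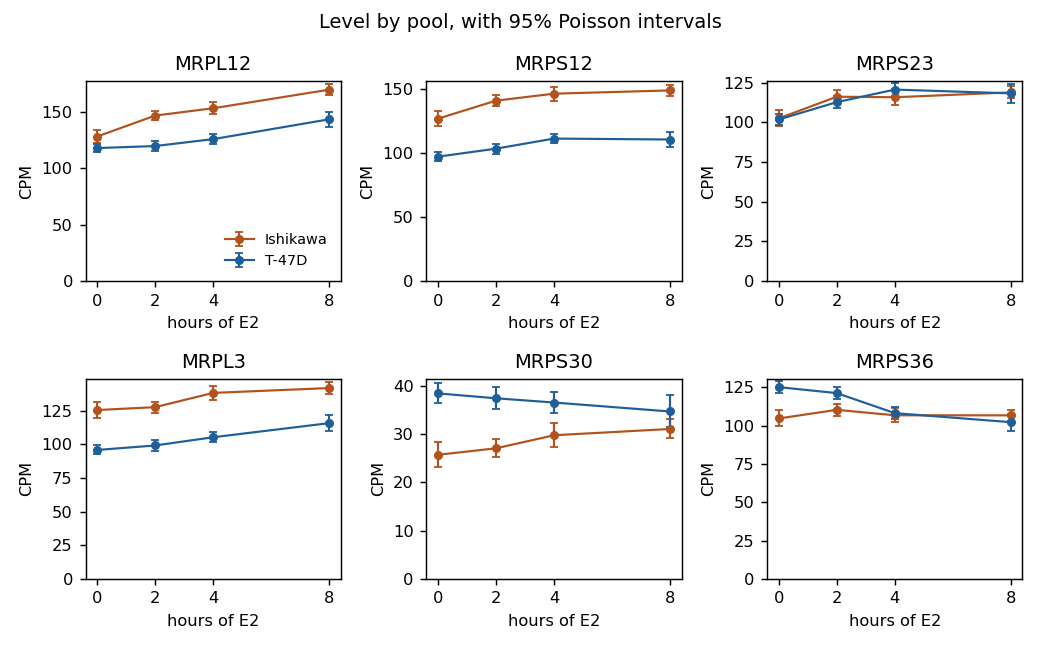
Level in CPM (vertical) by hours of E2 (horizontal) in each pool of Ishikawa and T-47D for MRPL12, MRPS12, MRPS23, MRPL3, MRPS30 and MRPS36, with 95% Poisson intervals as bars. MRPL12 is highest at 8 h in both lines, at 170 and 143 CPM, while MRPS36 in T-47D is at 125 CPM at 0 h and 102 CPM at 8 h.

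The lowest changes at 8 h were found in T-47D. MRPS36 had 125 CPM (121 to 129) at 0 h, 121 at 2 h, 108 at 4 h and 102 CPM (96.8 to 108) at 8 h, a log2 change of −0.29 (−0.38 to −0.20) at 8 h. In Ishikawa it had 105, 110, 107 and 107 CPM, and these intervals overlapped. Its protein is the one that does not belong to the mitoribosome by its current name. MRPS22, a small subunit protein of mitochondria, had 66.2, 61.5, 62.1 and 58.8 CPM in T-47D (−0.17 at 8 h, −0.29 to −0.05) and 31.4, 30.2, 31.2 and 31.1 CPM in Ishikawa. MRPS30 had 38.5, 37.5, 36.6 and 34.7 CPM in T-47D, and 25.7, 27.1, 29.8 and 31.1 CPM in Ishikawa, so its 8 h changes were −0.14 (−0.31 to 0.01) and 0.26 (0.10 to 0.45). In Ishikawa the lowest at 8 h were MRPL48 at −0.14 (−0.29 to 0.01), MRPL2, a protein of the peptidyl transferase centre, at −0.12 (−0.24 to 0.00) and MRPS14 at −0.09 (−0.22 to 0.05). At 2 and 4 h the lowest values included MRPL10 (−0.16), MRPS35 (−0.10), MRPL39 (−0.13 at 4 h) and MRPS31 (−0.11 at 4 h) in Ishikawa. In T-47D they included MRPL39 (−0.10 at 2 h), MRPS6 (−0.08 at 2 h), MRPS28 (−0.16 at 4 h) and MRPS27 (−0.14 at 4 h). MRPS18A was at 0.05 in Ishikawa and −0.12 (−0.26 to 0.02) in T-47D at 8 h.

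Between the lines, 39, 34 and 38 of 74 members were above 0 in both at 2, 4 and 8 h, against 25.7%, 27.7% and 32.8% of 6404 genes. Both lines were below 0 for 8, 11 and 6 members, against 26.2%, 31.0% and 27.8% of genes. In 13 of 74 members (17.6%) the change was above 0 at all times in one line and below 0 at all times in the other, against 11.1% of all genes. Across the 74 members rho between the changes of Ishikawa and T-47D was 0.21, 0.24 and 0.16 at 2, 4 and 8 h, and across all genes 0.11, 0.27 and 0.30. These are descriptions over genes, which share the pools.

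Both subunits had medians above 0. At 8 h the 49 large subunit members past the minimum in Ishikawa had a median change of 0.10 and the 25 small subunit members of 0.09, and in T-47D the 48 and 25 members had 0.03 and 0.06. Members with a bacterial homologue (44 in Ishikawa and 43 in T-47D) had medians of 0.12 and 0.05, and those specific to mitochondria (29 in each) 0.05 and 0.01. The summed level of the large subunit at 0 h was 5739 CPM in Ishikawa and 5131 CPM in T-47D, and that of the small subunit 2532 and 2728 CPM. The differences between these groups were not tested.

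Other genes of mitochondrial translation, from lists chosen with the members, were set beside them at 8 h with the same limits of 1.5-fold and of 0.32 on the log2 scale. Of the 5 mitoribosomal proteins under other names, 0 were past the smaller limit in either line and PTCD3, a small subunit protein, was highest at 0.22 in Ishikawa and 0.22 in T-47D. Of 10 and 9 measured translation factors 0 were past the smaller limit, with the elongation factor gene GFM1 highest at 0.24 and 0.16. Among genes of mitoribosome assembly and ribosomal RNA processing, 0 of 23 in Ishikawa and 4 of 17 in T-47D were past the smaller limit upwards, where 3.89% and 7.11% of all genes were. Of these, 1 in T-47D was past 1.5-fold, as were 2.34% of genes there. This was YBEY, an RNA-processing endonuclease gene, at 0.63. Of the mitochondrial tRNA synthetases 0 of 6 and 0 of 10 were past the smaller limit. Among mitochondrial transcription genes and their regulators, 2 of 8 in Ishikawa and 1 of 5 in T-47D were past the smaller limit upwards, again against 3.89% and 7.11% of genes. The nuclear receptor gene ESRRA was highest in Ishikawa at 0.53 and lowest in T-47D at −0.27, and the coactivator gene PPRC1 was highest in T-47D at 0.58. The 13 protein-coding genes of mitochondrial DNA, whose messenger RNAs the mitoribosome translates, had median changes of 0.04, −0.04 and −0.04 at 2, 4 and 8 h in Ishikawa. In T-47D these were −0.05, −0.02 and −0.03. The cytosolic ribosomal proteins had 0.08, 0.06 and 0.05 in Ishikawa, where 77, 77 and 69 of 78 were above 0. In T-47D they had −0.03, 0.00 and 0.02, with 15, 40 and 49 of 79 above 0.

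At 0 h the members varied less between cells than most genes of like level. Noise was measured as the coefficient of variation (CV) of normalised counts between 0 h cells, as the residual from the trend of CV on mean level over all genes, and each gene was called High or Low when it stood in the top or bottom 20% of residuals among genes of like mean. High noise was found in 0 of 75 members in Ishikawa and 0 of 74 in T-47D, against 20% and 20.1% of all genes. Low noise was found in 37 of 75 members in Ishikawa (49.3%) and in 31 of 74 in T-47D (41.9%), against 19.9% of all genes in each line. Residuals were below 0 in 75 of 75 members in Ishikawa, where 67.3% of genes were, and in 72 of 74 in T-47D, where 73.3% were. The CV of single members ran from 0.42 to 2.27 with a median of 0.89 in Ishikawa and from 0.45 to 1.72 with a median of 0.77 in T-47D. Divided by the CV that counting alone would give, this was a median of 1.09 in Ishikawa and 1.07 in T-47D, and 1.10 and 1.06 for all genes. It ran from 0.97 to 1.48 and from 0.99 to 1.34 over the members. The highest ratios were those of MRPL20 (1.48) and MRPL51 (1.44) in Ishikawa and of MRPL41 (1.34) in T-47D. This ratio grows with the level of a gene, and these were the most abundant members of their lines. Their residuals, which take level into account, were −0.033, −0.083 and −0.050. All genes had a lower median level than the members, so the median ratios do not compare genes of like level.

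In Ishikawa the lowest residuals were those of MRPL9 (−0.13, CV 0.90 against 0.93 from counting), MRPS21 (−0.13, CV 0.69 against 0.68) and MRPL13 (−0.12, CV 0.79 against 0.78). In T-47D they were those of MRPS15 (−0.10, CV 0.72 against 0.73), MRPS34 (−0.10, CV 0.45 against 0.41) and MRPL47 (−0.09, CV 0.48 against 0.43). At the other end MRPL12 was the highest member in both lines, at −0.015 in Ishikawa (CV 0.83 against 0.67 from counting) and 0.007 in T-47D (CV 0.78 against 0.65). MRPS30 (−0.018) and MRPS31 (−0.025) followed in Ishikawa, and MRPL24 (0.002) and MRPL51 (−0.006) in T-47D. Low noise in both lines was called for 16 members, which were 16 of 36 in Ishikawa and 16 of 31 in T-47D among the 74 common members, against 7.69% of 6243 genes. The product of both shares comes to 15.1 members, so the overlap was about that of lists of these sizes. They were MRPL3, MRPL4, MRPL13, MRPL14, MRPL21, MRPL45, MRPL46, MRPL50, MRPL54, MRPS12, MRPS14, MRPS15, MRPS16, MRPS17, MRPS18C and MRPS28. Across the 74 members the residuals of the lines had a rho of 0.008, against 0.49 across all genes. The quartiles of the member residuals were −0.09 and −0.05 in Ishikawa, compared with −0.06 and −0.03 in T-47D.

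**Figure D5:**
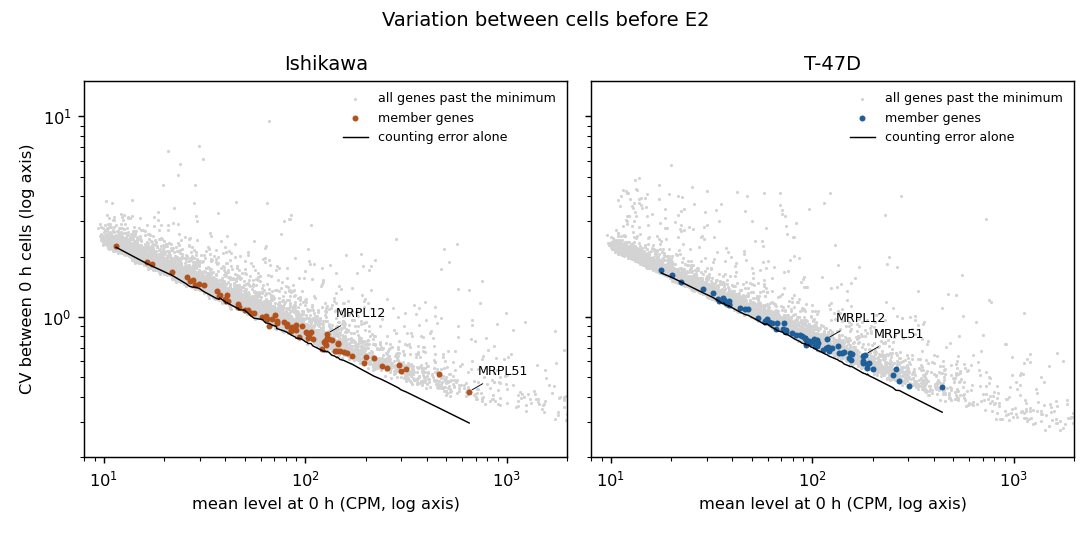
CV between 0 h cells (vertical) against mean level in CPM (horizontal), both on log axes, for all genes past the minimum (grey) and the members (coloured), with a black line for the CV that counting alone would give, in Ishikawa and T-47D. The members run along the lower edge of the grey cloud, with CVs from 0.42 to 2.27 and from 0.45 to 1.72.

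Per cell, the members gave enough UMIs together to compare single cells. The median kept cell held 156 to 187 member UMIs in Ishikawa, compared with 165 to 185 in T-47D. Per 10000 UMIs the median was 84.5, 87.5, 88.8 and 90.4 at 0, 2, 4 and 8 h in Ishikawa, with quartiles of 73.72 and 95.005 at 0 h and of 79.0 and 101 at 8 h. In T-47D it was 80.5, 80.6, 82.0 and 84.5, with quartiles of 69.4 and 91.7 at 0 h and 73.1 and 94.7 at 8 h. The cells of all time points overlapped widely. The CV of this share between cells was 0.23, 0.19, 0.21 and 0.21 in Ishikawa, compared with 0.21, 0.20, 0.20 and 0.20 in T-47D, where counting alone would give 0.074 to 0.082. With each cell thinned to the same number of UMIs (12539 in Ishikawa and 14495 in T-47D, leaving 676 of 776 and 1331 of 1525 cells at 0 h and 519 to 1336 cells in the other pools), the variance of the summed member UMIs was 4.24 to 5.72 times their mean in Ishikawa and 4.62 to 5.05 times in T-47D. For cytosolic ribosomal proteins it was 112 to 159 and 97.0 to 117 times the mean, although this ratio grows with the level of a sum. Thinned member sums went with those of cytosolic ribosomal proteins across cells, with rho from 0.21 to 0.40 in the Ishikawa pools and from 0.35 to 0.41 in T-47D. With the messenger RNAs of mitochondrial DNA rho was −0.08 to −0.13 in Ishikawa, compared with −0.53 to −0.57 in T-47D, where the mitochondrial share of UMIs was higher (median 10.0% to 10.4% of a cell, against 3.96% to 4.27%). Thinned sums are shares of a fixed total, so a larger share of one kind leaves less for the other, and the part of this in the relation was not tested.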

How the data were processed

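Ishikawa and T-47D were each profiled as 1 droplet library of expressed genes, with a second library of MULTI-seq tags. The tag libraries were not analysed here beyond the deposited time point calls. The deposited matrices hold UMI counts per gene and cell barcode, which the authors made from 10x Genomics 3′ v3.1 libraries. Per the submitters' processing notes, Cell Ranger 3.1.0 and the build hg38 were used. A deposited table gives the time point that the authors called for each barcode, or a doublet.

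Barcodes called to 1 time point (9077 of 14985 for Ishikawa and 4626 of 18188 for T-47D) were kept within the limits of the study's methods, which asked for 8500 to 35000 UMIs and 2700 to 6000 detected genes in Ishikawa, with a mitochondrial share under 7%, and for 7500 to 40000 UMIs and 1500 to 6000 detected genes in T-47D, with a share under 20%. This left 4613 and 4626 cells. Barcodes with more than 1 tag were dropped, pairs of cells with the same tag were not removed, and no further doublet caller was run. UMIs were summed per line and time point, and each pool was brought to CPM by its total. Changes are log2((CPM + 1)/(CPM at 0 h + 1)), which understates those of low genes, for genes with a mean of at least 10 CPM. Between lines the minimum held in either line. With 1 culture per group there is no test and no p-value. Exact intervals at 95% and the limit of 3 counts for a 0 cover counting error only. Noise was adapted from the study's measure, with the CV of UMIs per 10000 between 0 h cells, a generalised additive model of log2(CV + 1) on log10 mean (mgcv 1.9.3) and the top and bottom 20% of residuals in 10 bins by mean. It differs from the study's in the log10 of the mean, the minimum, residuals left on the log2 scale and values that were not log transformed before the CV.

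Alternatives of scaling were TMM factors (edgeR 4.0.16 in R 4.3.3, used for these factors only), median-of-ratios factors and a total without mitochondrially encoded and reporter features. Pseudocounts of 0.1 and 5 CPM, minimums of 0 and 50 CPM, a smaller fold (0.32 on the log2 scale) and a fold of 2 were also used. For the choice of cells they were every called cell, a lower maximum of UMIs per cell (1.5 times the median) and the mean over cells. Cells thinned to 12539 (Ishikawa) or 14495 (T-47D) UMIs and Ishikawa cells under 1% GFP completed the alternatives. Scripts ran in Python 3.11.15 with NumPy 2.4.6, SciPy 1.17.1, pandas 2.3.3 and matplotlib 3.10.9. The fold rule, the intervals of ratios and the noise fit were run on simulated data, and the other steps were not. Positions and promoters are from RefSeq (GRCh38.p14), matched by symbol or synonym, with the first listed start of each gene.

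The members, lists and limits were chosen with earlier results of these data known. Members were named by rule, namely the 3 highest and lowest levels, changes at each time and noise residuals in each line, the 3 largest differences between lines in each direction, any member past 1.5-fold, and MRPL10, MRPL11, MRPL12, MRPS30, MRPS18A and MRPS36 regardless of value, as well as the highest or lowest gene at 8 h of related lists. Members under the minimum, those above 0 at each time in both lines, those with opposite directions, MRPL16 and MRPS35 were named after their values were seen.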

Additional observations from a re-analysis of the deposited data

Results flagged for a closer look

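In 13 of 74 members (17.6%) the change after E2 was above 0 at 2, 4 and 8 h in one line and below 0 at all 3 times in the other. The difference was not tested, since each line and time was 1 culture, and 11.1% of all genes showed such a pattern. The values are the 8 h log2 change in Ishikawa minus that in T-47D. Higher in Ishikawa and lower in T-47D were MRPS30 with a difference of 0.41, MRPS36 with 0.32, MRPS28 with 0.27, MRPL16 with 0.24, MRPL42 with 0.24, MRPL58 with 0.18, MRPL13 with 0.16, MRPL11 with 0.16, MRPS6 with 0.11, MRPL52 with 0.070 and MRPL55 with 0.052. The reverse order was found for MRPS16 with −0.15 and MRPL33 with −0.091. For each of these 13 members the counting interval of the 8 h change included 0 in at least 1 line, so counting error alone leaves the sign open there. For MRPS36 the 8 h changes were 0.03 in Ishikawa and −0.29 in T-47D, and for MRPS30 0.26 and −0.14. MRPL58 encodes the factor that releases peptides from stalled mitoribosomes, and it stood at 0.10 in Ishikawa and −0.08 in T-47D.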

How the results depend on the processing

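The filter removed no called T-47D cell, so every called cell gave that line the same values, which are left out of the counts here. Of 66 median changes of the members recomputed under an alternative, 64 were above 0 and 64 above the median of all genes. The exceptions, in T-47D at 2 h, were −0.0030 with the lower maximum of UMIs and −0.0025 as a mean over cells. Ishikawa medians at 2, 4 and 8 h were 0.10, 0.11 and 0.13 under TMM scaling, 0.096, 0.11 and 0.12 under median-of-ratios scaling, 0.040, 0.055 and 0.078 without mitochondrially encoded and reporter features, 0.13, 0.14 and 0.15 with every called cell, and 0.034, 0.049 and 0.078 under 1% GFP. At 8 h the mean over cells gave 0.10 and thinned cells 0.079. T-47D medians were 0.0054 at 2 h and 0.028 at 8 h with TMM factors, and 0.034 at 4 h with median-of-ratios factors. They were 0.030 at 8 h with the lower maximum of UMIs, 0.0092 and 0.031 at 4 and 8 h as a mean over cells, and 0.033 at 4 h in thinned cells. The smaller fold limit (0.32 on the log2 scale) added 1 member (MRPL12, Ishikawa, 8 h), and no minimum added 1 lower member in T-47D at 8 h (MRPL23). Between lines the members at least 1.5-fold higher in T-47D and in Ishikawa were 34 and 7 under TMM scaling (39.8% and 20.8% of all genes), 33 and 7 under median-of-ratios scaling (36.8% and 23.4%), and 6 and 7 at 2-fold (15.5% and 22.4%). Thinning moved Low noise in Ishikawa to 37.3%, with 1 member High, and every called cell gave 3 High members there. Agreement between lines was 0.26 at 8 h with Pearson's r, 0.60 for levels at 50 CPM (52 members), and 0.11 at 2 h and 0.14 for noise residuals in thinned cells. Per 10000 UMIs the median cell had 85.3, 90.1 and 90.9 at 0, 4 and 8 h in thinned Ishikawa cells and 79.3 and 82.8 at 0 and 8 h in thinned T-47D cells. Without mitochondrially encoded and reporter features it had 90.6, 93.0, 94.4 and 96.4 in Ishikawa, compared with 90.2, 90.0, 92.1 and 93.1 in T-47D. The cause of these shifts was not tested.

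Of 295 summary values under an alternative 243 moved by less than their limit and 52 moved past it. The 295 include the counts of members past 1.5-fold after E2, which were 0 and nearly all stayed at 0. At 2-fold these counts could only be 0, so the total says little about stability. The 52 include many of the median changes given above. Of 2244 values of single members under an alternative, 2187 stayed within the counting interval, and 123 had the other sign, all with a size of at most 0.16 in the reported setting. No replicate could be left out. No paired analysis was possible because each line and time was 1 culture. Depth limits single members most at low levels. At 8 h in T-47D, the pool with fewest UMIs, the interval of MRPL10 ran from 17.5 to 22.5 CPM.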
